A study of Mus musculus with 32 samples.

Results

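Growth arrest and p53 target genes were followed in aged mouse liver across diets and drugs. The set held 7 of the 8251 genes on the array, namely the GADD45 family Gadd45a, Gadd45b and Gadd45g, with Ccng1, Cdkn1a, Mdm2 and Btg2. All probe sets whose only platform gene symbol was one of these were taken, which gave 9 of 12488 probe sets. The genes were chosen by their place in this pathway and with measured values of these same arrays known, among them the Gadd45a differences of LTCR and CR8 from CON and from each other. Which other values took part is not recorded. Levels and group differences of all 7 are therefore a description, and no p-value is printed for them. Below it is also stated which differences passed a threshold on adjusted p. Such calls are circular where the same values helped choose the genes. They are given as a description, and no conclusion is drawn from them.

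The arrays measured liver RNA from 32 male mice of the long-lived strain B6C3F1, with 1 array for each mouse and 4 mice in each of 8 groups. Long-term caloric restriction (LTCR) began at 5 months and gave 52.2 kcal per week. Mice restricted for 8 weeks (CR8) received 77 kcal per week for 2 weeks and then 52.2 kcal per week for 6 weeks, from 20 months. From the same age and for the same time, 5 groups ate control diet to which a compound had been added. It was metformin, a biguanide that lowers blood glucose, in MET, glipizide, which stimulates insulin release, in GLIP, and both of these in GM. In ROS it was rosiglitazone, a PPAR gamma agonist, and in SOY an extract of soy isoflavones. Control mice (CON) received 93 kcal per week of that diet. All mice were housed singly from 5 months and were killed at 22 months after a 48 hour fast, so every group including CON was measured in the fasted state. LTCR and CR8 differ in age at onset as well as in duration. The sources used here give no doses.

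The transcription factor p53 is held low by Mdm2, the ligase that marks it for degradation, and is released by DNA damage and other stress. It then raises genes that halt the cell cycle, among them Cdkn1a (the cyclin-dependent kinase inhibitor p21) and Gadd45a, and it raises Mdm2 itself, which closes a feedback loop. GADD45 proteins are small acidic proteins that bind the kinase Map3k4, the replication clamp Pcna and cyclin B1 with its kinase. The same genes also answer to p53-independent signals such as nutrient shortage, cytokines and FOXO factors, which are held in check by insulin.

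Promoter windows of the genes, from 250 bases before to 50 after the RefSeq start in GRCm38.p6, were searched on both strands for the p53 half-site and for a full site, defined as 2 half-sites at most 13 bases apart. The window sequences are from RefSeq, and all 7 genes had one. Windows are shown for Gadd45a and Ccng1, which were lowest in LTCR, for Gadd45g, which was highest there, and for the classical p53 target Cdkn1a. By group mean Btg2 was also lowest in LTCR and Gadd45b also highest. Their windows held no half-site and are not shown. Capitals mark p53 half-sites, and in Gadd45g the TATAAA element.
Gadd45a, chr6:67037358-67037657, minus strand: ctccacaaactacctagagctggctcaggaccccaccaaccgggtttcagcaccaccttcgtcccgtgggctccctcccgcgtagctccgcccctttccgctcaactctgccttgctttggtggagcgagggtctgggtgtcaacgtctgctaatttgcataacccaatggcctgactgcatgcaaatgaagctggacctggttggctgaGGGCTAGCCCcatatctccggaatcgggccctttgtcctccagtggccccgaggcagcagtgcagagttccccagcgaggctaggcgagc
Ccng1, chr11:40755237-40755536, minus strand: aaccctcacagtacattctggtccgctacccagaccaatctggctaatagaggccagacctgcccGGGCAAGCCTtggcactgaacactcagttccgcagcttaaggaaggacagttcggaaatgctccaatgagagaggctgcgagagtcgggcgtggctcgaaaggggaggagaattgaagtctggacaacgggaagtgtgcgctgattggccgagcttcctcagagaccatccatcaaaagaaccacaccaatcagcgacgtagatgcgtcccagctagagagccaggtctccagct
Cdkn1a, chr17:29090729-29091028, plus strand: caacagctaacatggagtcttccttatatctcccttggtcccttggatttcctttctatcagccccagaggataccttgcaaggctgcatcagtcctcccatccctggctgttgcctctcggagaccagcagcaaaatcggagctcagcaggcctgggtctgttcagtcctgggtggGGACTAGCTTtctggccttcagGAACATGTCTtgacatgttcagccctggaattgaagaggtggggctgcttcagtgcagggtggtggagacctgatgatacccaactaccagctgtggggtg
Gadd45g, chr13:51846425-51846724, plus strand: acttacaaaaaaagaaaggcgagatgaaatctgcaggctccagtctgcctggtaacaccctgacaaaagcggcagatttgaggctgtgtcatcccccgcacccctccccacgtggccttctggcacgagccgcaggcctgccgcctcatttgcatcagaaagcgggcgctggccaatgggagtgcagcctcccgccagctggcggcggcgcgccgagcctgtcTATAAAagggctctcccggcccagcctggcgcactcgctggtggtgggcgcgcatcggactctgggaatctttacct

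The Gadd45a half-site GGGCTAGCCC lay 40 to 31 bases before the start, and the Ccng1 half-site GGGCAAGCCT 185 to 176 bases before it. Mdm2 held GAACTTGCCT at 186 to 177 bases before its start. The more upstream of the 2 Cdkn1a starts had a full site, made of GGACTAGCTT and GAACATGTCT and spanning 73 to 42 bases before the start, while the other Cdkn1a window (chr17:29093519-29093818) held no half-site. No half-site was found in the windows of Gadd45b, Gadd45g or Btg2. The Btg2 window held TGACGTCA, the cyclic AMP response element. TATAAA lay in the windows of both Gadd45g and Gadd45b, as did CACGTG. Mdm2 held TGTTTAC, and CCAAT lay in windows of all the genes but Cdkn1a. Of 32851 mouse windows of this length, 8.36% held a half-site, 0.0731% a full site, 13.6% TATAAA and 1.79% TGACGTCA. CACGTG was found in 7.15% of them, TGTTTAC in 3.65% and CCAAT in 37.4%. These matches describe the letters of the windows alone.

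Intensities are the authors' scaled values, so levels are compared between groups for 1 probe set and never between probe sets. Log2 differences are of log2(intensity + 27) with standard errors (SE) from 1 limma fit over the 8 groups. That fit held the 7357 probe sets that passed a filter on low values, and a probe set is said to pass the threshold at a Benjamini-Hochberg adjusted p below 0.05. All 7 genes had a probe set above the filter. Array medians lay between 144.8 and 170.1 units and arrays correlated between 0.928 and 0.977 over those probe sets. Measured hepatocyte markers (11 of 12) were far above 27 on average in every group. In 5 arrays, CON 3, CR8 1, CR8 2, ROS 4 and SOY 3, skeletal muscle transcripts stood apart, with 14 markers summing to between 9201 and 28862 units, against 2485 to 4335 in the other arrays. Differences that moved most without these 5 arrays are given beside the gene.

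Gadd45a, the stress sensor of the family, showed the widest range of the set. It had 73.0, 29.6, 19.2 and 25.6 units in LTCR livers, 161.8, 188.9, 307.8 and 218.9 in CR8 livers, and 660.9, 377.1, 616.1 and 737.9 in CON livers. The 3 groups did not overlap, with LTCR lowest, CR8 between and CON highest. Group means were 36.9 ± 24.5 units in LTCR, 219 ± 63.4 in CR8 and 598 ± 156 in CON (SD, n = 4 each), so that the CON mean was 16.2 times the LTCR mean. In LTCR, 2 of 4 arrays lay below 27 units, near the foot of the scale. The log2 difference from CON was -3.32 ± 0.24 in LTCR and -1.34 ± 0.24 in CR8, the third and the ninth lowest of 7357 probe sets. LTCR differed from CR8 by -1.98 ± 0.24. Without the muscle arrays the difference of CR8 from CON was -1.06 and that of LTCR -3.29.

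The means of the drug groups lay between those of the restricted and the control mice in Gadd45a. Arrays read 506.7, 451.4, 397.4 and 403.9 units in MET, 323.4, 309.7, 536.1 and 391.2 in GLIP, and 220.0, 390.2, 503.9 and 328.9 in GM. They read 448.9, 436.6, 296.8 and 404.4 in ROS and 437.1, 454.1, 276.6 and 329.2 in SOY. All 20 of these arrays lay above every LTCR array and below the CON mean, 17 lay above every CR8 array, and 7 lay below every CON array. Log2 differences from CON were -0.39 in MET, -0.57 in GLIP, -0.70 in GM, -0.54 in ROS and -0.63 in SOY (SE 0.24 each), and in none of these groups were the arrays separate from CON. The 5 differences share the same 4 CON arrays. From the lowest group mean up, the order was LTCR, CR8, GM (361), SOY (374), GLIP (390), ROS (397), MET (440) and CON, and LTCR and CR8 were the only neighbours whose arrays did not overlap.

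**Figure D1:**
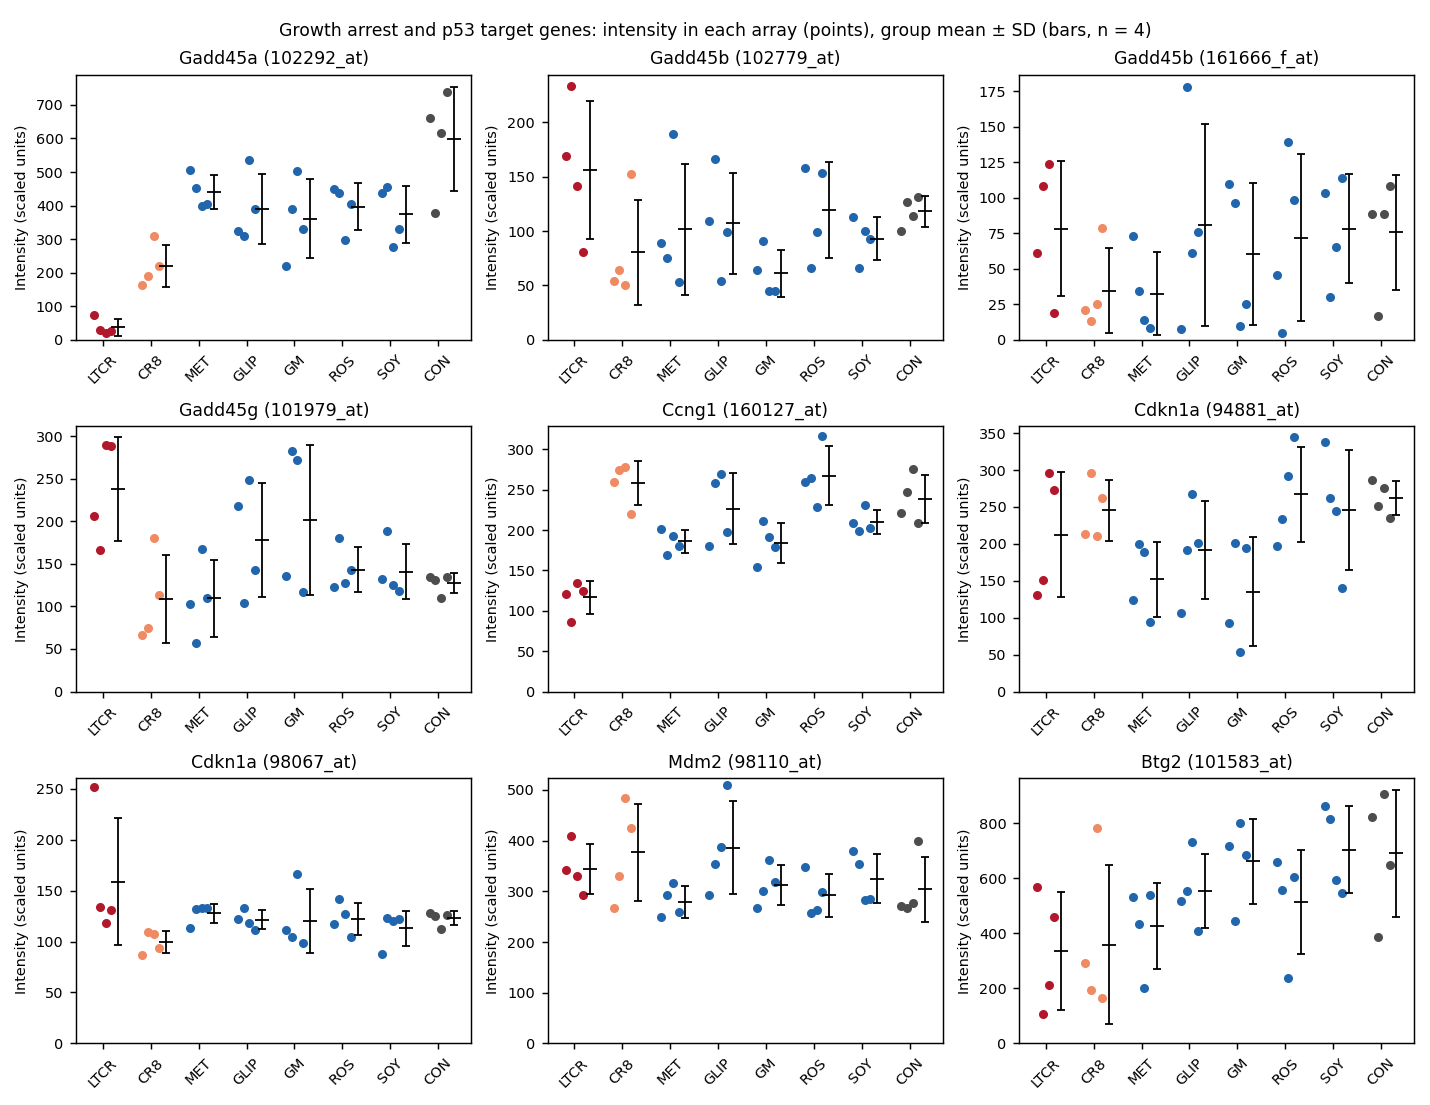
Intensity of each of the 9 probe sets (scaled units, linear axis from 0) in each array, by group, with the group mean and SD beside the points (n = 4). Gadd45a is lowest in the 4 LTCR arrays, at 19.2 to 73.0 units against 377.1 to 737.9 in CON, and Ccng1 is lowest in the same group.

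Gadd45b, the member induced by cytokines and growth factors and early in liver regeneration, did not follow Gadd45a. It had 169.5, 234.0, 141.9 and 81.0 units in LTCR livers, 54.0, 64.6, 50.5 and 152.8 in CR8 livers, and 99.9, 127.1, 113.9 and 131.3 in CON livers. LTCR and CR8 both overlapped CON, with 3 of 4 LTCR arrays above it and 3 of 4 CR8 arrays below it. The log2 difference from CON was 0.28 ± 0.31 in LTCR and -0.52 ± 0.31 in CR8, and LTCR differed from CR8 by 0.79 ± 0.31. CR8 differed from CON by -0.30 and LTCR from CR8 by 0.57 without the muscle arrays, and leaving out 1 array moved the LTCR difference from CON between 0.08 (without LTCR 2) and 0.51 (without LTCR 4). The lowest group was GM, at 64.1, 90.8, 45 and 44.8 units, all below CON, with a log2 difference of -0.74 ± 0.31. MET, GLIP, ROS and SOY overlapped CON, with means from 92.9 to 119 units against 118 ± 14.2 in CON. A second Gadd45b probe set lay below the filter, with 11 of 32 arrays under 27 units and groups that all overlapped their neighbours. There GM differed from CON by -0.32 ± 0.55.

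Gadd45g, the third member, was highest in LTCR. It had 206.2, 166.5, 290.1 and 288.1 units in LTCR livers, 66.3, 74.1, 179.9 and 113.2 in CR8 livers, and 134.4, 131.2, 109.8 and 134.5 in CON livers. Every LTCR array lay above every CON array, while CR8 overlapped both. The means were 238 ± 61.5 units in LTCR, 108 ± 51.9 in CR8 and 127 ± 11.9 in CON (SD, n = 4 each). LTCR differed from CON by 0.75 ± 0.28 and from CR8 by 1.01 ± 0.28, and CR8 from CON by -0.26 ± 0.28. Without the muscle arrays, which leave 2 CR8 arrays, LTCR differed from CR8 by 0.61 and CR8 from CON by 0.09. The 3 family members thus had log2 differences from CON of -3.32, 0.28 and 0.75 in the same LTCR livers.

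The groups given glipizide spread widely in Gadd45g. GM livers had 135.2, 282.7, 271.8 and 116.7 units and GLIP livers 217.6, 103.6, 248.0 and 142.6, with 2 arrays of each far above the CON range and the other two near it. The log2 differences from CON were 0.48 ± 0.28 in GM and 0.35 ± 0.28 in GLIP. MET had 102.6, 57.5, 167.7 and 110.4 units, and GM differed from MET by 0.72 ± 0.28 with overlapping arrays. ROS and SOY means were 143 ± 26.0 and 141 ± 32.3 units.

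Ccng1 encodes cyclin G1, a p53-induced cyclin that brings the phosphatase PP2A to Mdm2. It had 120.3, 86.5, 135.0 and 124.1 units in LTCR livers, 259.0, 274.8, 278.5 and 219.6 in CR8 livers, and 221.5, 246.8, 275.8 and 208.6 in CON livers. LTCR stood apart below both other groups, and CR8 and CON overlapped. The means were 116 ± 20.9 units in LTCR, 258 ± 26.9 in CR8 and 238 ± 29.7 in CON (SD, n = 4 each). The log2 difference was -0.89 ± 0.13 for LTCR against CON, -0.998 ± 0.13 for LTCR against CR8 and 0.11 ± 0.13 for CR8 against CON. Ccng1 had the tightest groups of the set, with an SD of 0.17 (log2) within groups.

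All 20 drug arrays lay above every LTCR array in Ccng1. MET had 200.7, 169.3, 193.2 and 180.5 units, below every CON array, with a log2 difference of -0.31 ± 0.13. GM had 153.9, 211.8, 191.4 and 178.7 units and -0.33 ± 0.13, with 1 array inside the CON range. GLIP (-0.07 ± 0.13), SOY (-0.16 ± 0.13) and ROS (0.15 ± 0.13) overlapped CON. ROS had the highest group mean, 267 ± 36.4 units.

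**Figure D2:**
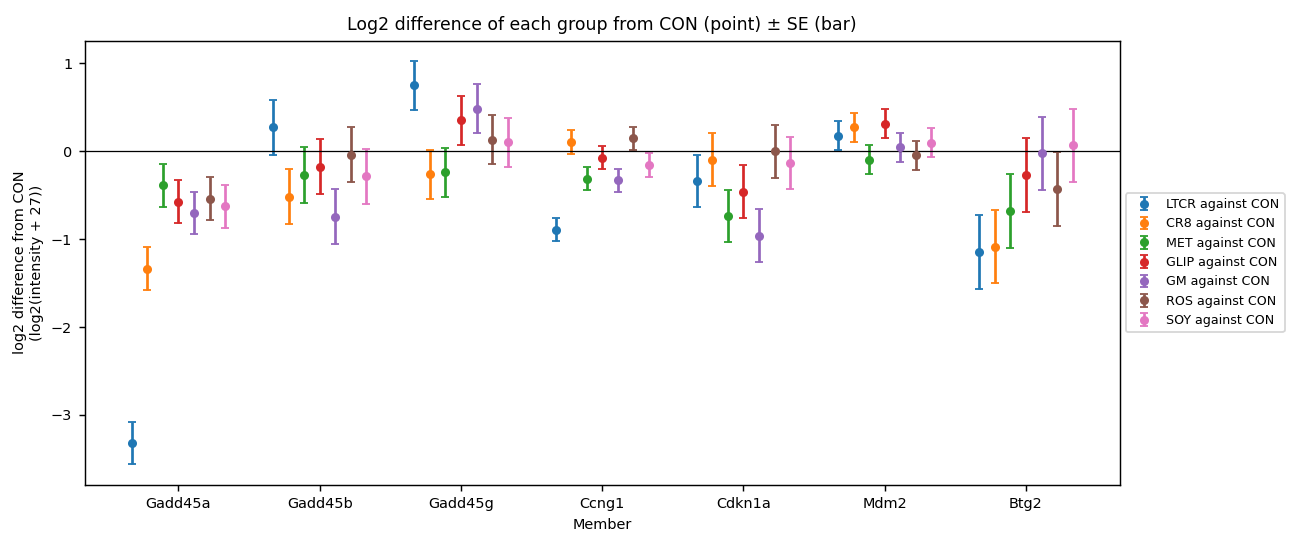
Log2 difference of each group from CON (points) with its SE (bars) for the 7 genes, each at its probe set with the highest mean, on the log2(intensity + 27) scale. Gadd45a is below 0 in all 7 groups, at -3.32 in LTCR, while Gadd45g is at 0.75 and Gadd45b at 0.28 in LTCR.

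Cdkn1a was measured by 2 probe sets that disagreed. Within groups they correlated at r = -0.563 over the 32 arrays, and over the 8 group means at -0.208, given as a description. On the probe set with the higher mean, Cdkn1a had 130.3, 150.9, 296.2 and 273.5 units in LTCR livers, 213.1, 295.4, 210.3 and 262.3 in CR8 livers, and 286.9, 251.6, 275.2 and 235.7 in CON livers. LTCR split into 2 arrays below and 2 at or above the CON range. The log2 difference from CON was -0.34 ± 0.30 in LTCR and -0.10 ± 0.30 in CR8. Every MET array (124.7, 200.5, 188.4 and 94.7 units) and every GM array (93.0, 201.1, 53.4 and 193.8) lay below every CON array, with log2 differences of -0.73 ± 0.30 and -0.96 ± 0.30. GLIP differed by -0.46 ± 0.30 and overlapped CON.

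The other Cdkn1a probe set showed no such gap under metformin, with log2 differences from CON of 0.05 ± 0.17 in MET and -0.04 ± 0.17 in GM. It read 252.0, 134.2, 117.9 and 131.0 units in LTCR livers, 86.4, 109.0, 107.3 and 94.0 in CR8 livers, and 128.0, 124.7, 112.6 and 126.0 in CON livers. CR8 lay wholly below both LTCR and CON on this probe set, with LTCR against CR8 at 0.51 ± 0.17, where the first gave -0.24 ± 0.30. The direction of Cdkn1a therefore depended on the probe set for LTCR against CON, LTCR against CR8 and MET against CON.

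Mdm2, which is both a p53 target and its inhibitor, varied least. It had 342.5, 409.6, 330.1 and 293.3 units in LTCR livers, 267.7, 330.7, 483.9 and 424.8 in CR8 livers, and 271.1, 267.1, 276.3 and 400.1 in CON livers. Group means lay between 279 (MET) and 386 (GLIP), and each group overlapped its neighbours in that order. Log2 differences from CON ranged from -0.10 ± 0.16 in MET to 0.31 ± 0.16 in GLIP, with 0.18 ± 0.16 in LTCR and 0.27 ± 0.16 in CR8. CR8 differed from CON by 0.52 without the muscle arrays, and LTCR from CR8 by -0.38, against -0.10 with them.

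Btg2, an antiproliferative gene induced by p53 and as an immediate early gene, had the widest spread between mice of a group among the 7 genes at their brightest probe sets, with an SD of 0.64 (log2). It had 566.6, 105.1, 213.0 and 460.0 units in LTCR livers, 290.6, 193.1, 783.4 and 165.1 in CR8 livers, and 820.2, 384.7, 906.6 and 647.4 in CON livers. Both restricted groups reached lower than CON and overlapped it. The log2 difference from CON was -1.15 ± 0.42 in LTCR and -1.08 ± 0.42 in CR8. MET was next, with 532.9, 433.8, 201.4 and 537.8 units and -0.68 ± 0.42, while GM (-0.02 ± 0.42, or 0.12 with equal array medians) and SOY (0.07 ± 0.42) lay near CON. Leaving out 1 array moved the LTCR difference between -1.46 (without LTCR 1) and -0.74 (without LTCR 2). When the muscle arrays were left out, the differences from CON were -0.996 in LTCR and -0.65 in CR8, and LTCR differed from CR8 by -0.35, against -0.06 with them. GLIP then differed from CON by -0.12, against -0.27 with them, and SOY by 0.29.

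Counted over the 7 genes, 2 passed the threshold in LTCR against CON, Gadd45a and Ccng1, both lower, beside 19.3% of all probe sets tested (11.8% lower). In 1 gene the LTCR arrays lay wholly above CON and in 2 wholly below, beside 21.2% of probe sets whose arrays did not overlap. Under 5 alternatives each, among them equal medians for Gadd45g and the stricter filter for Btg2, Gadd45g (higher) or Btg2 (lower) also passed in LTCR against CON. In CR8 against CON, 1 gene passed, Gadd45a, beside 0.544% of probe sets. Its CR8 arrays lay wholly below CON, beside 7.2% of probe sets that did not overlap. It did not pass without the muscle arrays, which leave 3 CON and 2 CR8 arrays. For LTCR against CR8, Gadd45a and Ccng1 were lower, both without overlap (16.1% of probe sets), and Gadd45g was higher past the threshold, beside 12% of probe sets, and Gadd45g did not pass without CR8 1, CR8 2 or LTCR 4. Gadd45b, higher, passed there without CR8 4 or LTCR 4. These contrasts took part in the choice of the genes, so nothing is read from the counts. No member passed in the 5 drug groups against CON, where limma called 4.17% of probe sets in MET, 1.55% in GM, 0.136% in GLIP, 0.136% in ROS and 0.000% in SOY. Arrays did not overlap CON for 2 genes in MET, Ccng1 and Cdkn1a, beside 10% of probe sets, and for 2 in GM, Gadd45b and Cdkn1a, beside 10.5%. All 7 genes had a negative difference in MET (median -0.31), where the median of all probe sets was -0.03. The share of all probe sets with a negative difference there was not counted. The differences of the 7 genes rest on the same CON arrays, so no shift of the set is read from their signs. The sign turned for Mdm2 without CON 4 (0.03) and for Cdkn1a on its other probe set.

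GM was also set against each drug alone. Against MET, no gene passed the threshold or stood apart, beside 2.62% of probe sets past it and 8.56% not overlapping, and the median difference of the 7 genes was -0.02. Against GLIP, limma called 0.000% of probe sets (675 had an unadjusted p below 0.05). Log2 differences of GM from GLIP there ran from -0.57 ± 0.31 in Gadd45b and -0.50 ± 0.30 in Cdkn1a to 0.25 ± 0.42 in Btg2. Among the 8 groups, GM had the lowest means of the first Gadd45b and the first Cdkn1a probe set. On the second Gadd45b probe set, which lay below the filter, MET was lowest (32.45 units) and GM had 60.175.

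Markers of some liver cells differed between the same groups. Sums of the T, NK and B cell, stellate cell and fibroblast, endothelial cell and adipocyte markers overlapped CON in both LTCR and CR8. The 12 measured of 14 Kupffer cell and macrophage markers summed to 3057 to 4440 units in LTCR and 3161 to 4811 in CR8, against 4952 to 6042 in CON, with 1 of them below 27 units in all arrays of each group. The 6 measured of 8 cholangiocyte markers summed to 2194 to 2652 units in LTCR, 2666 to 5199 in CR8 and 4604 to 5944 in CON, with 1, 1 and 2 below 27 in all arrays. The 8 listed were Krt19, Krt7, Krt8, Krt18, Epcam, Sox9, Spp1 and Cldn7, not all of them particular to these cells. A sum follows its brightest markers most. Their mean log2 value was 7.08 ± 0.11 in LTCR, 7.29 ± 0.30 in CR8 and 7.46 ± 0.09 in CON (SD). The 11 hepatocyte markers summed to 186414 to 212486 units in LTCR, 157896 to 186470 in CR8 and 157335 to 175339 in CON, with 0 below 27. In these bulk samples fewer cells of a type and less RNA per cell cannot be told apart. The part of such cells in the Gadd45a and Ccng1 levels was not tested.

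Variation between mice of the same group was examined after group means were removed, which takes out every difference between groups. Whether such variation was known when the genes were chosen is not recorded, and the p-values hold only if it was not. On these deviations, the 21 pairs of genes were tested over the 32 arrays by permutation within groups (100000 resamples, two-sided). Gadd45a moved with Btg2 (Pearson r = 0.556, permutation p = 0.00373, adjusted p = 0.0512; Spearman rho = 0.571, permutation p = 0.00208, adjusted p = 0.0290). It moved with Mdm2 to a like degree (r = 0.549, permutation p = 0.00488, adjusted p = 0.0512; rho = 0.593, permutation p = 0.00276, adjusted p = 0.0290). Both pairs thus passed the threshold by rank and missed it by Pearson. Without the 2 arrays farthest from the Gadd45a median, r was 0.557 with Btg2 and 0.605 with Mdm2, and without the muscle arrays 0.550 and 0.469. No other pair passed after adjustment, though Gadd45b and Btg2 had r = -0.503 (permutation p = 0.0231, adjusted p = 0.161; rho = -0.418, permutation p = 0.0447, adjusted p = 0.313). Of the 21 correlations 14 were positive, with a median of 0.07. The 2 genes past the threshold in LTCR against CON, Gadd45a and Ccng1, had r = 0.164 within groups (permutation p = 0.464, adjusted p = 0.703; rho = 0.116, permutation p = 0.584, adjusted p = 0.767).

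**Figure D3:**
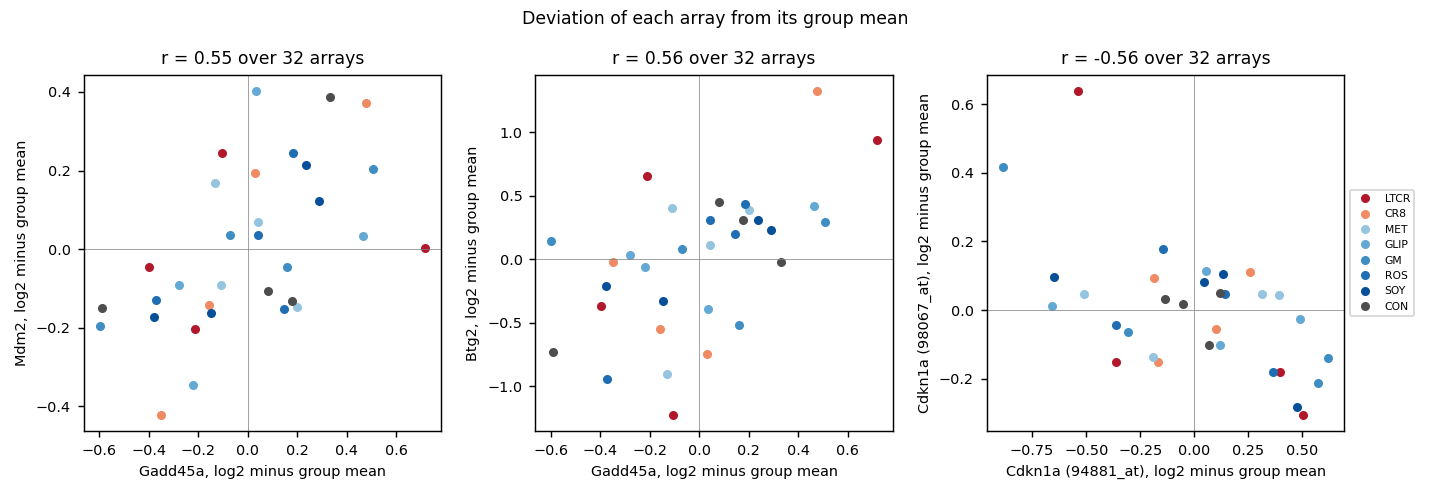
Deviation of each of the 32 arrays from its group mean (log2), for Gadd45a against Mdm2 (r = 0.55), Gadd45a against Btg2 (r = 0.56) and the 2 Cdkn1a probe sets against each other (r = -0.56), coloured by group. The first 2 panels slope up, and the third slopes down.

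Over the 8 group means, the genes most like Gadd45a were Isg15 (r = 0.987), Ttc30b (0.980), Ube2l6 (0.976), Dck (0.974) and Sri (0.972), a description over 8 points that share arrays and scaling and in which LTCR stands far from the rest. Isg15, a ubiquitin-like protein induced by interferon, averaged 104 ± 55.4 units in LTCR, 363 ± 81.9 in CR8 and 850 ± 172 in CON (SD, n = 4 each). Ube2l6, the conjugating enzyme of Isg15, averaged 272 ± 24.3 units in LTCR, 376 ± 53.1 in CR8 and 542 ± 98.7 in CON. Within groups the likeness was far weaker, with r = 0.185 for Isg15 and -0.307 for Ube2l6 against Gadd45a. For Ccng1 the most alike were Srsf5 (0.985), a splicing factor, Tbc1d15 (0.984) and Smndc1 (0.975). Srsf5 averaged 1477 ± 156 units in LTCR, 2243 ± 221 in CR8 and 2221 ± 255 in CON (SD, n = 4 each). For Gadd45g they were Cebpg (0.956), Egfr (0.925) and Flcn (0.918), and Egfr, the epidermal growth factor receptor, averaged 321 ± 43.6 units in LTCR, 149 ± 44.8 in CR8 and 173 ± 40.1 in CON.

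**Figure D4:**
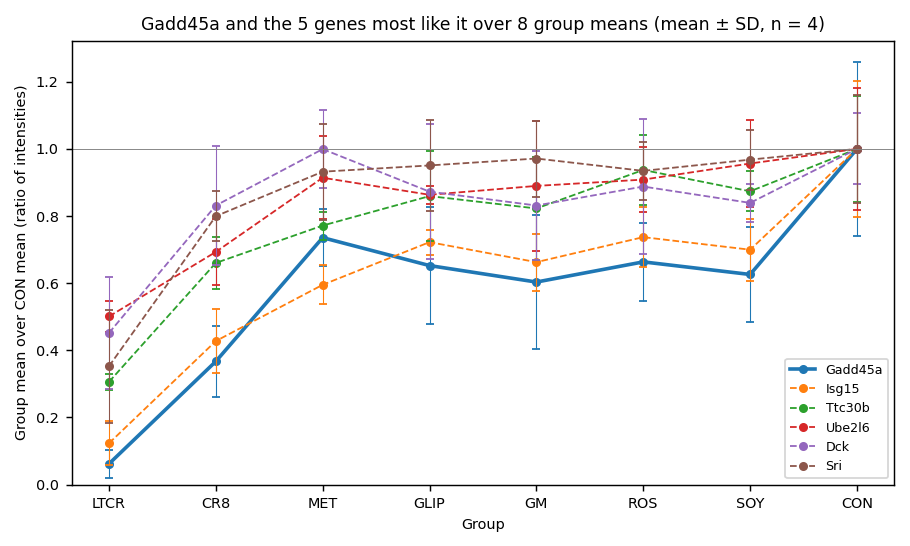
Group mean of Gadd45a (thick line) and of the 5 genes most like it, each divided by its own CON mean, with the SD divided likewise (n = 4), on a linear axis from 0. All 6 are lowest in LTCR, and Gadd45a and Isg15 are the lowest of them in CR8.

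Genes of the p53 pathway and of processes beside it were followed with 8 gene lists, of which 132 genes were tested. Limma was used, with Benjamini-Hochberg adjusted p over all 7357 probe sets. Beside p53 targets and p53 regulators, the lists held cell cycle, GADD45 partner, stress, FOXO and DNA repair genes. The lists were drawn up with earlier results of these arrays known. Their counts, medians and calls are therefore a description, and nothing about a pathway is read from them. In LTCR against CON 14 of the 132 rose and 17 fell, beside 7.53% of all probe sets higher and 11.8% lower. Of 16 other p53 target genes tested (24 on the array), 6 fell and 0 rose, and the list median was -0.17 against 0.00 for all probe sets. Tap1, the peptide transporter of antigen presentation, had 331 ± 32.4 units in LTCR and 670 ± 110 in CON (SD, n = 4), a log2 difference of -0.95 ± 0.16 (adjusted p = 0.000109). Ephx1, microsomal epoxide hydrolase, fell to 2017 ± 499 in LTCR, against 3776 ± 429 in CON (-0.92 ± 0.16, adjusted p = 0.000117). Perp and Siva1, which promote apoptosis, and Cd82 and Ei24 fell by smaller amounts, between -0.41 and -0.26. Between 3 and 6 of the list passed when 1 array was left out, the fewest without CON 1 or LTCR 1, and 4 passed without the muscle arrays. Tap1 and Ephx1 passed in all 8 of these fits, and the other calls ended in 2 to 5 of them.

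Of 12 regulators of p53, Crebbp, an acetyltransferase coactivator, fell in LTCR against CON (-1.13 ± 0.30, adjusted p = 0.00815) and Yy1 rose (0.35 ± 0.12, adjusted p = 0.0479). The Crebbp call ended without LTCR 4, and the Yy1 call in 6 of the 8 fits with 1 array left out and without the muscle arrays. Mdm4, the partner of Mdm2, had -0.11 ± 0.12 (adjusted p = 0.573). Of 14 partners of GADD45 and stress kinases, 2 rose and 0 fell. Map3k5, an upstream kinase of the p38 and JNK pathways, had 458 ± 36.6 units in LTCR and 299 ± 64.1 in CON (SD, n = 4; 0.59 ± 0.14, adjusted p = 0.00238), and the retinoid receptor Rxra rose by 0.39 ± 0.10 (adjusted p = 0.00850). Map3k5 passed with any 1 array left out, while the Rxra call ended without CON 3 and without the muscle arrays. The direct GADD45 partners Map3k4 (0.12 ± 0.25, adjusted p = 0.788) and Pcna (-0.35 ± 0.13, adjusted p = 0.0560) did not pass.

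Of 16 further cell cycle inhibitors and growth arrest genes, Gas2 fell in LTCR, with 702 ± 61.4 units against 1328 ± 96.0 in CON (SD, n = 4; -0.89 ± 0.11, adjusted p = 1.9e-06), and Ndrg2 rose by 0.29 ± 0.10 (adjusted p = 0.0479), a call that ended in 7 of the 8 fits with 1 array left out. Btg1, a relative of Btg2, had -0.20 ± 0.13 (adjusted p = 0.336). Of 19 cyclins, kinases and proliferation genes, 4 rose, Mcm7 (0.67 ± 0.18), Ccnd3 (0.43 ± 0.13), Ccnb2 and Tk1 (both 0.38), and the cyclin Ccnd1 fell (-0.76 ± 0.23). Their adjusted p lay between 0.00914 and 0.0390, and each call ended in 1 to 7 of the 8 fits with 1 array left out, where between 1 and 6 of the list passed. Of 22 DNA repair genes, Xrcc5, a subunit of the Ku end-binding complex, fell by 1.11 ± 0.20 (adjusted p = 0.000241) and Rpa1 by 0.53 ± 0.15 (adjusted p = 0.0104), and Xrcc1 rose by 0.74 ± 0.21 (adjusted p = 0.0105). The Rpa1 call ended without LTCR 1 and the Xrcc1 call without CON 2 or LTCR 4.

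Stress-induced genes and FOXO targets were followed in the same way. Of 24 immediate early and stress-induced transcription genes, 5 fell in LTCR against CON, Xbp1 (-0.80 ± 0.17), Ier2 (-0.51 ± 0.12), Egr1 (-1.03 ± 0.27), Atf3 (-1.05 ± 0.29) and Junb (-0.82 ± 0.29), and Dusp1, a phosphatase that switches off stress kinases, rose (0.84 ± 0.24). Their adjusted p lay between 0.00120 and 0.0450. The Atf3 call ended without CON 3 and without the muscle arrays, and the Junb call in 5 of the 8 fits with 1 array left out. Ddit3, a stress gene also known as Gadd153, had -1.07 ± 0.51 (adjusted p = 0.149). Of 14 FOXO factors and targets, 4 rose and 1 fell, and between 3 and 7 passed when 1 array was left out. G6pc, glucose-6-phosphatase, rose by 1.41 ± 0.26 (adjusted p = 0.000271), and Bcl6, a transcriptional repressor, fell by 2.11 ± 0.56 (adjusted p = 0.00708). Both passed with any 1 array left out, as did Pck1, the gluconeogenic enzyme (0.71, adjusted p = 0.000742), while the Igfbp1 (1.14, adjusted p = 0.0201) and Foxo4 (0.46, adjusted p = 0.0264) calls ended in 3 and 2 of the 8 fits.

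In CR8 against CON, 0 of the 132 genes passed in limma, beside 0.544% of probe sets, and 23 had an unadjusted p below 0.05. Tap1 (-0.46 ± 0.16, adjusted p = 0.226), Ephx1 (-0.45 ± 0.16, adjusted p = 0.221) and Bcl6 (-0.64 ± 0.56, adjusted p = 0.736) were among the values short of the threshold. In LTCR against CR8, 10 of the 132 rose and 9 fell, beside 4.65% of probe sets higher and 7.34% lower. Ccng2, the p53-independent relative of Ccng1 and a FOXO target, was higher in LTCR (382 ± 25.7 units against 243 ± 59.7 in CR8, SD, n = 4; 0.62 ± 0.17, adjusted p = 0.0139), where Ccng1 was lower. Mdm4 was lower (-0.38 ± 0.12, adjusted p = 0.0399), the checkpoint kinase gene Chek2 higher (0.66 ± 0.21, adjusted p = 0.0346), and Tap1, Siva1 and Ephx1 were lower, by 0.34 to 0.49. Leaving out 1 array ended the Ccng2 call without CR8 1, the Chek2 call in 4 of 8 fits, the Mdm4, Tap1 and Siva1 calls in 5 and the Ephx1 call in 6. Between 0 and 3 p53 regulators then passed, and between 0 and 3 other p53 targets. Map3k5 (0.73, adjusted p = 0.000754), Pck1 (0.76, adjusted p = 0.000883) and G6pc (1.09, adjusted p = 0.00605) were higher by limma. Rxra was higher (0.43, adjusted p = 0.00705) and Xrcc5 lower (-0.99, adjusted p = 0.00161). These calls passed with any 1 array left out, but those of Rxra and Xrcc5 ended in a fit to the 2 groups. Without the muscle arrays the Ccng2 call ended, 7 of the 132 rose and 2 fell, and 0 other p53 targets passed.

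Few list genes passed in the drug groups. In MET against CON, Btg1 fell by 0.50 ± 0.13 (adjusted p = 0.0304) and Cat, catalase, by 0.46 ± 0.10 (adjusted p = 0.0102), and Rxra (0.41 ± 0.10, adjusted p = 0.0256) and Brca2 (1.15 ± 0.29, adjusted p = 0.0230) rose. Cat passed with any 1 array left out and without the muscle arrays, while the Btg1 call ended in 6 of the 8 fits, and those of Rxra and Brca2 in 4. In GM against CON, Irs2, an insulin receptor substrate and FOXO target, rose by 1.87 ± 0.40 (adjusted p = 0.0191), with 253 ± 132 units in GM and 43.5 ± 20.2 in CON (SD, n = 4), and Cat fell by 0.41 ± 0.10 (adjusted p = 0.0387). The CON mean of Irs2 lay near the 27 units added and below the 94.2 units of the filter. The size of its difference therefore depends on the value added. The Irs2 call ended without CON 4, GM 1 or GM 4, without the muscle arrays and in a fit to the 2 groups. The Cat call ended in 6 of the 8 fits with 1 array left out and without the muscle arrays. In limma 0 of the 132 passed in GLIP, ROS and SOY against CON and in GM against GLIP, with 14, 23, 10 and 11 at an unadjusted p below 0.05. In GM against MET, Usp7, a deubiquitinase of Mdm2 and p53, was higher (0.33 ± 0.08, adjusted p = 0.0201), and Pltp, Dusp1, Msh6, Ogg1 and Tk1 were lower, by 0.48 to 1.25. Pltp passed with any 1 array left out, and the other calls ended in 3 to 6 of 8 such fits. All 6 calls ended in a fit to the 2 groups.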

How the data were processed

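Liver RNA of 32 mice was measured on Affymetrix MG-U74Av2 arrays, in 8 groups of 4 named by the sample titles. Each probe set had 1 deposited intensity per array, on a linear scale from 0.1 to 47323.7. The authors had scaled the arrays, since each column's mean without the top and bottom 2% was 499.9 to 500.4. The sources used here do not give the software, the background correction or detection calls. Precision is limited by 4 arrays per group, each taken as 1 mouse per the labels.

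Of 12422 probe sets left after 66 controls were removed, 10833 had 1 gene symbol in the platform annotation, 396 several and 1193 none. Values were analysed as log2(intensity + 27), the 20th percentile, which understates changes of dim genes. The filter kept 7357 probe sets whose mean log2 value exceeded that of the 40th percentile, 94.2 units. Limma 3.58.1 in R 4.3.3 (lmFit, eBayes with trend) was fitted once over all groups, with 24 residual degrees of freedom. The threshold was an adjusted p of 0.05 within each of 10 comparisons, 7 of them against the same CON arrays. A gene is its probe set with the highest mean.

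The genes, lists and tests were chosen with earlier results of these data known. All 7 genes were named. Other genes were drawn from the 4 list genes of smallest p per direction, list and comparison, and from a fixed set of pathway genes. The 3 most alike genes (5 for Gadd45a) were a further source. Some of these are left out of the text, so a gene not named may still have passed the threshold. Replicate numbers are not said to pair mice, and of 112 pairs of same-numbered arrays 10 correlated above 0.1 after group means were removed (median -0.01), so the arrays were treated as unpaired. Alternatives were other scalings, added values, filters, fits, probe sets, the replicate block and arrays left out.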

Additional observations from a re-analysis of the deposited data

Results flagged for a closer look

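In 6 of 72 groups of 4 arrays (9 probe sets in 8 groups), 1 array lay far from the other 3, by Dixon's ratio of the gap to the whole range. Chance alone flags about 1 group in 20. In Gadd45b, CR8 4 was high (152.8 units, next 64.6; ratio 0.862). In Gadd45g, CON 3 was low (109.8 units, ratio 0.866), and it is 1 of the 5 arrays with muscle transcripts. In Mdm2, CON 4 was high (400.1 units, ratio 0.931). The second Cdkn1a probe set held the other 3, LTCR 1 high (252.0 units, ratio 0.878), MET 1 low (113.6 units, ratio 0.969) and SOY 1 low (87.4 units, ratio 0.935). No cause was tested.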

How the results depend on the processing

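Of 1170 values of the 70 gene differences under the alternatives, 1155 moved by less than the spread between arrays. The sign turned in 46, for 23 differences, and for none of the 6 past the threshold. Those 6 lie in contrasts that took part in the choice of the genes, so their stability is a description only. Of the 99 values of those 6, 7 were no longer past it. They were Gadd45a in CR8 against CON in a fit to the 2 groups or without the muscle arrays (-1.06), and Gadd45g in LTCR against CR8 in a fit to the 2 groups, without the muscle arrays (0.61), without CR8 1 (0.86), CR8 2 (0.89) or LTCR 4 (0.92). Of the others, 3 passed in some of their alternatives, 12 values in all, for Gadd45g and Btg2 in LTCR against CON and Gadd45b in LTCR against CR8. The low LTCR intensities of Gadd45a make its size depend on the value added before log2. With 1 unit added LTCR differed from CON by -4.13 and from CR8 by -2.69, and with the 40th percentile by -2.39 and -1.25, where Ccng1 had -0.66 and -0.74. Without the muscle arrays, Mdm2 had 0.52 in CR8 against CON and -0.38 in LTCR against CR8. On the other probe set, Cdkn1a had 0.26 in LTCR, 0.047 in MET and -0.045 in GM against CON, 0.51 in LTCR against CR8 and -0.030 in GM against GLIP, and Gadd45b had -0.79 in MET against CON and 0.46 in GM against MET. 

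The counts of probe sets past the threshold moved more. A fit to the 2 groups gave 16 for CR8 (40 in the fit of all groups), 33 for MET (307), 4 for GM (114) and 5 for ROS (10) against CON, 488 for LTCR against CR8 (882) and 0 for GM against MET (193), and the list genes past it were then 1, 1 and 0 in CR8, MET and GM against CON, 9 in LTCR against CR8 and 0 in GM against MET. Without the muscle arrays the counts were 95 for MET, 2 for GLIP and 33 for GM against CON and 423 for LTCR against CR8, with 2 list genes in MET, 0 in GM, 9 in LTCR against CR8 and 3 in GM against MET. With equal medians, which moved the median of all probe sets by 0.14 in GM, 0.11 in SOY and 0.12 in GM against GLIP, there were 432 for GM (413 higher and 19 lower, against 64 and 50), 6 for GLIP and 1 for GM against GLIP, 5 list genes in GM, and 2 pairs of genes past the threshold by Pearson. The split in MET was 191 higher and 65 lower with equal medians, against 135 and 172, and in CR8 18 and 18, against 13 and 27. In LTCR it was 635 and 717, against 554 and 865, and in GM against MET 182 and 58, against 96 and 97. In GLIP it was 6 and 0, against 9 and 1. With no filter there were 6 for GLIP and 57 for GM, with 1 list gene in GM, 12 in LTCR against CR8 and 2 in GM against MET, and with the stricter filter 2 list genes in CR8 and 1 in GM. The replicate block, with numbers that do not pair the mice (8 of 32 arrays correlated best with their own number), gave 4 probe sets for GLIP and 1 list gene in GM and moved no other of these counts by over 1.5 times.

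With 1 array left out the counts ran from 11 (without CR8 4) to 68 (without CR8 3) in CR8, from 140 to 234 in MET, from 1 to 11 in GLIP, from 28 to 112 in GM, from 4 to 12 in ROS and from 0 to 1 in SOY against CON, from 572 (without CR8 2) to 949 in LTCR against CR8, from 94 to 226 in GM against MET and from 0 to 2 in GM against GLIP. List genes past the threshold ran from 0 to 1 in CR8, 2 to 5 in MET and 0 to 3 in GM against CON, 11 to 17 in LTCR against CR8 and 1 to 8 in GM against MET. Among pairs, r turned to -0.0090, -0.016 and -0.096 for Gadd45b with Cdkn1a (equal medians, no muscle arrays, 2 farthest arrays left out), to -0.014 and -0.024 for Gadd45g with Cdkn1a (1 unit added, equal medians), to -0.043 for Gadd45g and -0.044 for Btg2 with Mdm2 (no muscle arrays) and to -0.0038 for Gadd45g with Btg2 (2 farthest left out), against 0.0147 to 0.196 as reported. The causes were not tested.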
